A study of Rattus norvegicus with 6 samples.

Results

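The amino acid transporters examined here were the genes of the Slc1, Slc3, Slc6, Slc7, Slc36, Slc38 and Slc43 families, matched by gene name. The name rule matched 62 of the 30957 genes in the liver expression table. Of these, 61 encode membrane carriers or their subunits. The remaining match, Slc7a6os, is a neighbour of Slc7a6 that encodes a nuclear import protein for RNA polymerase II and carries no amino acids. RNA had been sequenced from whole liver of 6 female Sprague Dawley rats, 3 in each of 2 groups out of 6 rats per group in the study. All recipients arrived at 3 weeks of age, had their own gut bacteria depleted by 3 antibiotic courses of 7 days, and were then gavaged daily for 14 days with faecal suspension. In the t-PBS group the suspension came from donor rats injected with PBS, and in the t-DHEA group from donors injected with dehydroepiandrosterone (DHEA), an androgen precursor that induces a state resembling polycystic ovary syndrome. The donor pellets were pooled and rats were housed 2 to a cage, so the livers of a group shared a donor pool and may have shared a cage. The comparison asks whether the microbiota of androgen-treated donors altered the expression of these carriers in the recipient liver.

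Liver takes up amino acids from portal blood, burns or rebuilds them, and returns glutamine, branched-chain amino acids and others to the circulation. The Slc38 carriers couple uptake of small neutral amino acids to sodium. The Slc7 family holds single-chain carriers of arginine and lysine as well as light chains that reach the cell surface only when joined to a heavy chain of the Slc3 family and then exchange one amino acid for another. Slc43 carriers let large neutral amino acids pass down their gradient, and Slc1 carriers concentrate glutamate or exchange neutral amino acids. Slc6 carriers move glycine, taurine, betaine, creatine and neurotransmitters, and Slc36 carriers move amino acids, some of them with protons and often out of lysosomes.

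The libraries held 12348511 to 14316886 counted fragments with overlapping depth between groups, so that a count of 0 allowed up to 3 counts, or 0.21 to 0.243 CPM (counts scaled to library size), counting error only. All 10 hepatocyte markers checked, Alb, Ttr and Apoa1 among them, were measured in every library, and their summed level ran from 84900 to 88100 FPKM (fragments scaled to gene length and library size) in t-PBS and from 85600 to 91600 FPKM in t-DHEA livers.

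Not all family members were found in liver. A member was taken as detected when more than 3 counts were recorded in at least 3 of the 6 livers. By this rule 33 of the 62 genes were detected, or 32 carriers and Slc7a6os. Detection was broadest in Slc43 (3 of 3), Slc38 (8 of 11) and Slc1 (5 of 7), and narrowest in Slc6 (6 of 19) and among the Slc7 light chains (4 of 10). There was no count in any library for 13 members. These were Slc1a6, Slc3a1, Slc6a2, Slc6a3, Slc6a5, Slc6a11, Slc6a17, Slc6a18, Slc6a19, Slc7a10, Slc7a12, Slc7a13 and Slc7a14. Several of these are known from other organs, such as the noradrenaline carrier Slc6a2, the dopamine carrier Slc6a3 and the kidney and gut carrier Slc6a19. Slc3a1 and Slc7a9, which together form the cystine carrier of the kidney tubule, were listed at 0 counts and at 0 to 3 counts per liver. The table also lists the widely expressed genes Hprt1, Rps6 and Rpl8 at 0 in all 6 livers, so a 0 in every liver need not mean that a gene was silent. A further 16 members had a few counts without reaching detection, including Slc1a1, Slc6a4, Slc6a7, Slc6a14, Slc6a15, Slc6a16, Slc7a3, Slc7a9, Slc7a11, Slc7a15, Slc36a2, Slc36a3, Slc38a5, Slc38a8 and Slc38a11. Among them was Slc7a11, the cystine and glutamate exchanger of antioxidant defence, with 1, 1 and 0 counts in t-PBS rats 1 to 3 and 2, 1 and 0 in t-DHEA rats 1 to 3.

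Levels of the detected carriers spanned several orders of magnitude and were headed by glutamine and alanine carriers of the Slc38 family. Per unit of gene length, Slc38a3, the sodium-coupled carrier of glutamine, histidine and asparagine in hepatocytes, was the most abundant member in all 6 livers at 413, 358 and 403 FPKM for the t-PBS rats and 408, 393 and 391 FPKM for the t-DHEA rats. Slc38a4, a liver-enriched sodium-coupled carrier of alanine and other neutral amino acids, came next at 160, 129 and 170 FPKM for the t-PBS and 176, 111 and 174 FPKM for the t-DHEA rats. The pair supplied between 61.6% and 65.3% of the summed FPKM of the 61 carriers in every liver. Their ranges did not overlap with each other or with any lower member. Next came Slc7a2, the arginine carrier of hepatocytes, with a mean of 66.5 FPKM over the 6 livers, and Slc6a13, a carrier of GABA and taurine, with a mean of 60.4 FPKM. The ranges of Slc7a2 (45.9 to 84.5 FPKM) and Slc6a13 (44.9 to 83.0 FPKM) overlapped, so no order is given between them. The heavy chain Slc3a2 (28.1 FPKM), the glycine carrier Slc6a9 (27.3 FPKM), Slc38a10 (22.7 FPKM) and Slc38a2 (22.6 FPKM) followed in a block in which each range overlapped the next. In the whole order of 28 genes tested, 22 of the 27 neighbouring pairs had overlapping ranges. At the lower end, Slc1a3, Slc1a5, Slc7a6 and Slc7a8 had means of 0.356 to 0.576 FPKM and lay between the 3.6 and 7.74 percentiles of the genes tested.

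**Figure D1:**
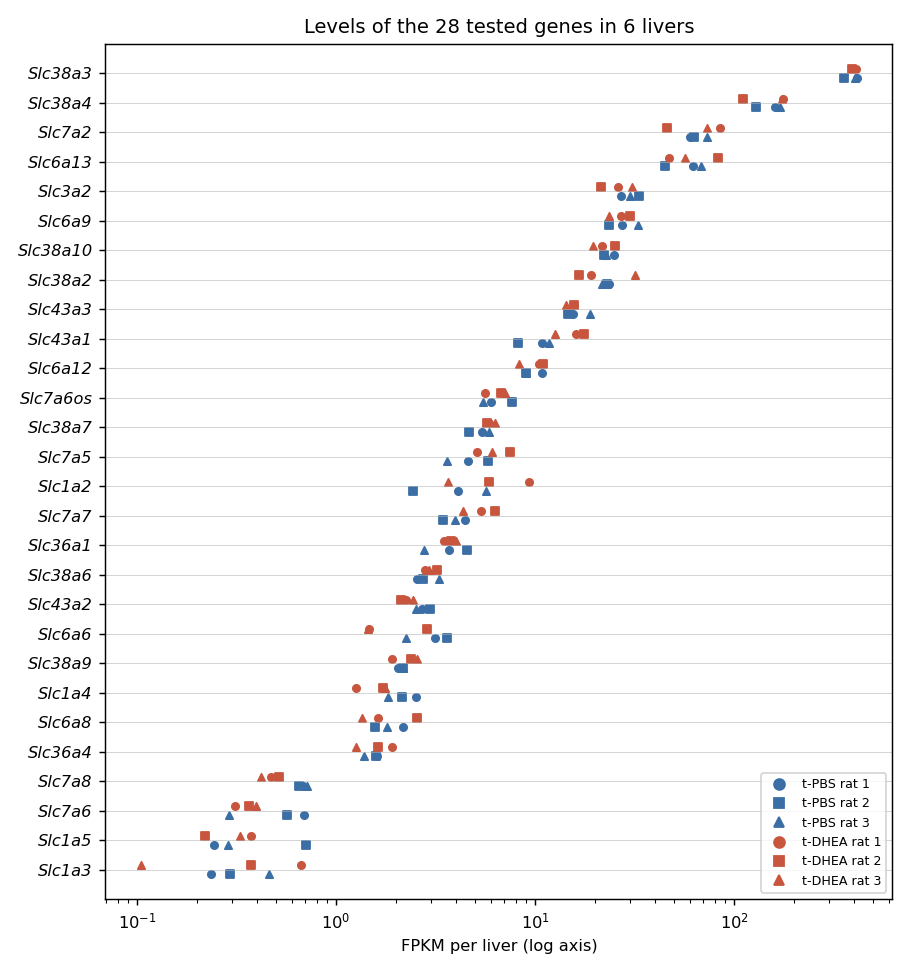
Level of each of the 28 tested genes in FPKM on a log axis, with genes ordered by their mean over the 6 livers and 1 point per liver (blue t-PBS, red t-DHEA). Slc38a3 and Slc38a4 stand apart at the top in all livers, and points of the groups intermingle for most genes.

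Of the 27 carriers tested, 4 met the study's criteria for a change, 3 of them higher and 1 lower in t-DHEA livers. The paper applied these criteria with edgeR to FPKM values, whereas counts were tested here, so its own calls may differ. Counts were compared with edgeR's quasi-likelihood test, two-sided, fitted to the 12210 genes that passed its filter on low counts, of which 28 were members. Differences are given as the log2 fold change of t-DHEA against t-PBS. At p below 0.05 before adjustment, together with a fold-change over 1.2, Slc43a1, Slc7a5 and Slc7a7 were called as upregulated and Slc7a8 as downregulated. This was 4 of 28 members, or 14.3%, beside 4.95% of all genes tested. In the upward direction it was 3 of 28 beside 1.97% of all genes, and in the downward direction 1 of 28 beside 2.98%. After Benjamini-Hochberg adjustment over all genes tested, 0 members had an adjusted p below 0.05, and 0.0% of all genes did. The lowest adjusted p of a member was 0.815, for Slc43a1. DESeq2 gave 24 and the likelihood-ratio test of edgeR gave 28 genes of all tested that passed the adjusted threshold, of which 0 were members, and 4 and 5 members had an unadjusted p below 0.05. The median log2 fold change of the 28 was 0.059, beside 0.0013 over all genes tested. Of the 28, 18 were higher and 10 lower, beside 50.4% higher among all genes tested. Without t-DHEA rat 1 the median was 0.0011, and without t-PBS rat 2 it was 0.012. The t-DHEA and t-PBS livers were fully separated in 4 of the 28 genes, or 14.3%, beside 10.1% of all genes tested. These were Slc43a1, which was higher in each t-DHEA liver, and Slc1a4, Slc43a2 and Slc7a8, which were lower in each. At this group size the smallest p open to an exact permutation test of one gene is 0.1.

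**Figure D2:**
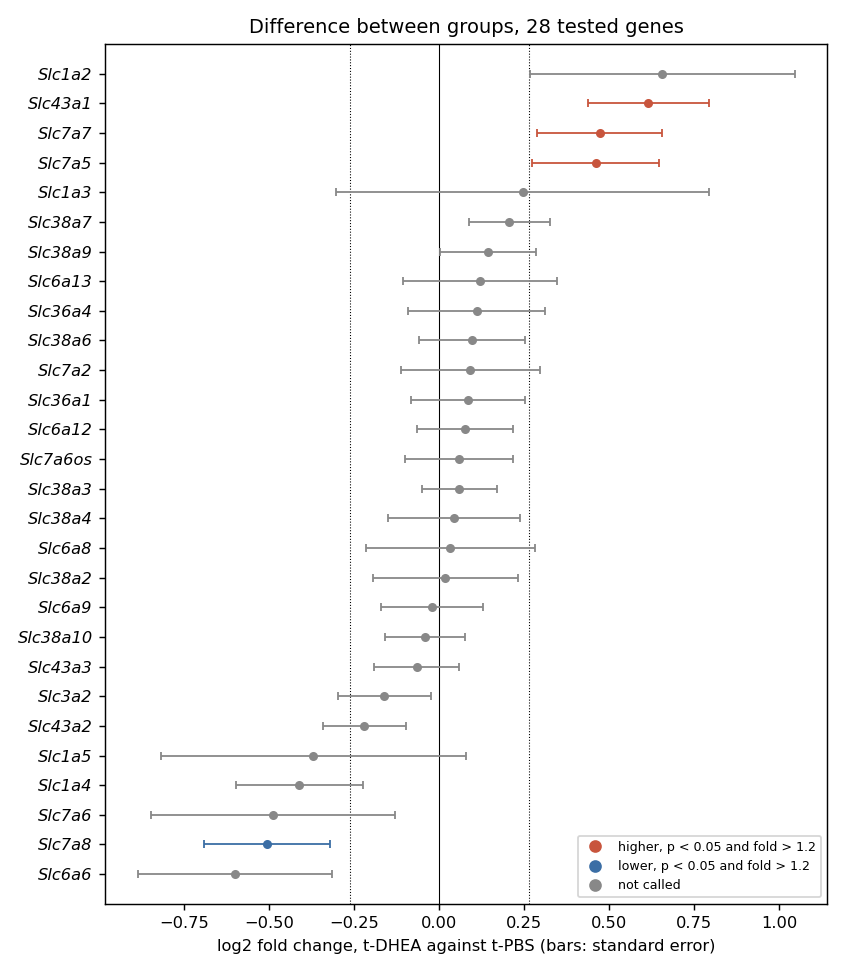
Log2 fold change of t-DHEA against t-PBS livers for the 28 tested genes, with bars for the standard error, a solid line at 0 and dotted lines at a fold-change of 1.2 in either direction. Red marks the 3 genes called as higher and blue the gene called as lower, and the remaining 24 are grey.

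Slc43a1, on chromosome 3 of Rnor_6.0 from 72238981 to 72264466, encodes LAT3, which passes leucine, isoleucine, valine and phenylalanine across the hepatocyte membrane without sodium. It had 285, 194 and 285 counts in t-PBS rats 1, 2 and 3 and 362, 433 and 300 counts in t-DHEA rats 1, 2 and 3. As CPM normalized by the TMM method, the t-PBS livers ran from 14.3 to 21.5 and the t-DHEA livers were 29.9, 32.4 and 23.2. The lowest t-DHEA liver, rat 3, lay just above the highest t-PBS liver, also rat 3. The means were 18.6 ± 3.80 CPM (SD, n = 3) and 28.5 ± 4.77 CPM (SD, n = 3), a ratio of 1.53. On the log2 scale this was 0.61 ± 0.18 (SE), with unadjusted p of 0.00749 (edgeR, quasi-likelihood test). Slc43a1 kept its call in all 6 fits that left out 1 liver, where the log2 fold change ran between 0.46 (t-PBS rat 2 left out) and 0.75 (t-DHEA rat 3 left out).

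The other Slc43 genes did not follow. Slc43a2 encodes LAT4, which carries a similar set of amino acids, and its level was lower in each t-DHEA liver, with 12.1, 12.8 and 11.2 CPM for the t-PBS and 10.2, 9.65 and 11.1 CPM for the t-DHEA rats. The gap between the groups was narrow, and its log2 fold change of -0.22 ± 0.12 (SE) did not pass (unadjusted p of 0.107, edgeR). Slc43a3, a carrier of purine bases rather than amino acids, lies 65.5 kb from Slc43a1 on the same chromosome. Its level was 44.3 ± 6.74 CPM (SD, n = 3) in t-PBS and 42.3 ± 2.26 CPM (SD, n = 3) in the t-DHEA group, with a log2 fold change of -0.067. Within each liver, the ratio of Slc43a1 to Slc43a2 FPKM was 4.06, 2.77 and 4.72 for the t-PBS and 7.20, 8.28 and 5.14 for the t-DHEA rats. Both genes separated the groups, in opposite directions, so their ratio had to separate them too. It is given as a description and is no further result.

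Among the Slc7 light chains, 4 of 10 were detected and tested, and 3 of these 4 were called, in both directions. Slc7a5, on chromosome 19 from 54693959 to 54722563, encodes LAT1, an exchanger of leucine, phenylalanine, tryptophan and other large neutral amino acids. It had 15.9, 19.3 and 12.5 CPM in t-PBS rats 1 to 3 and 17.9, 26.3 and 21.3 CPM in t-DHEA rats 1 to 3. The groups overlapped, since t-DHEA rat 1 lay below t-PBS rat 2. Its log2 fold change was 0.46 ± 0.19 (SE; unadjusted p of 0.0369, edgeR). The call was lost when t-PBS rat 1 or 3 or t-DHEA rat 2 or 3 was left out, falling to 0.31 without t-DHEA rat 2, and also with limma on FPKM.

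Slc7a7, on chromosome 15 from 33013504 to 33051129, encodes y+LAT1, which exports lysine and arginine in exchange for neutral amino acids and sodium and is the gene of lysinuric protein intolerance. It had 7.92, 5.90 and 7.02 CPM in t-PBS rats 1 to 3 and 9.74, 11.4 and 7.80 CPM in t-DHEA rats 1 to 3. The overlap was small and came from t-PBS rat 1 and t-DHEA rat 3. This gave a log2 fold change of 0.47 ± 0.18 (SE; unadjusted p of 0.0300, edgeR). It was called in 2 of the 6 fits that left out 1 liver, those lacking t-PBS rat 1 or t-DHEA rat 3, and was 0.34 without t-DHEA rat 2.

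Slc7a8, on the same chromosome from 33369216 to 33428973, encodes LAT2, which exchanges small as well as large neutral amino acids. It had 66, 57 and 64 counts for the t-PBS and 39, 47 and 37 counts for the t-DHEA rats, or 4.63, 4.20 and 4.83 CPM against 3.22, 3.52 and 2.86 CPM. The highest t-DHEA liver, rat 2, was below the lowest t-PBS liver, also rat 2, at a level near the bottom of the genes tested. Expressed as a log2 fold change, the difference was -0.51 ± 0.19 (SE; unadjusted p of 0.0235, edgeR). The call was lost without t-PBS rat 1 or 3, without t-DHEA rat 3, with DESeq2 and with limma on log2(FPKM + 1). Slc7a6, which encodes the related y+LAT2, had 1.86 ± 0.742 CPM (SD, n = 3) in t-PBS and 1.32 ± 0.157 CPM (SD, n = 3) in the t-DHEA group. Its p was 0.207 in edgeR. It was called only without t-PBS rat 3, with a log2 fold change of -0.77.

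**Figure D3:**
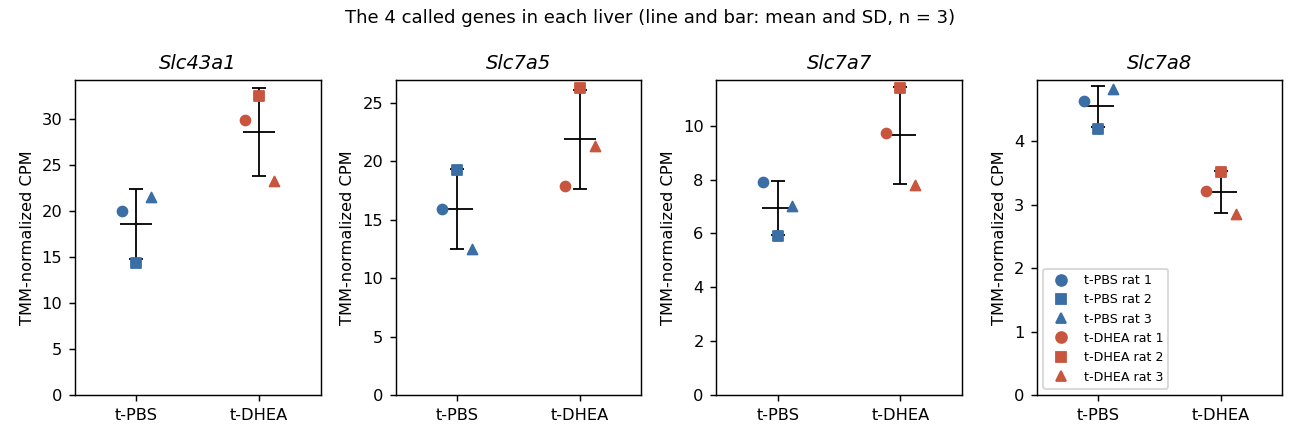
TMM-normalized CPM of Slc43a1, Slc7a5, Slc7a7 and Slc7a8 in each liver, on axes that start at 0, with 1 point per rat and lines and bars for the mean and SD of 3 livers. The groups are separated for Slc43a1 and Slc7a8 and overlap for Slc7a5 and Slc7a7.

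**Figure D4:**
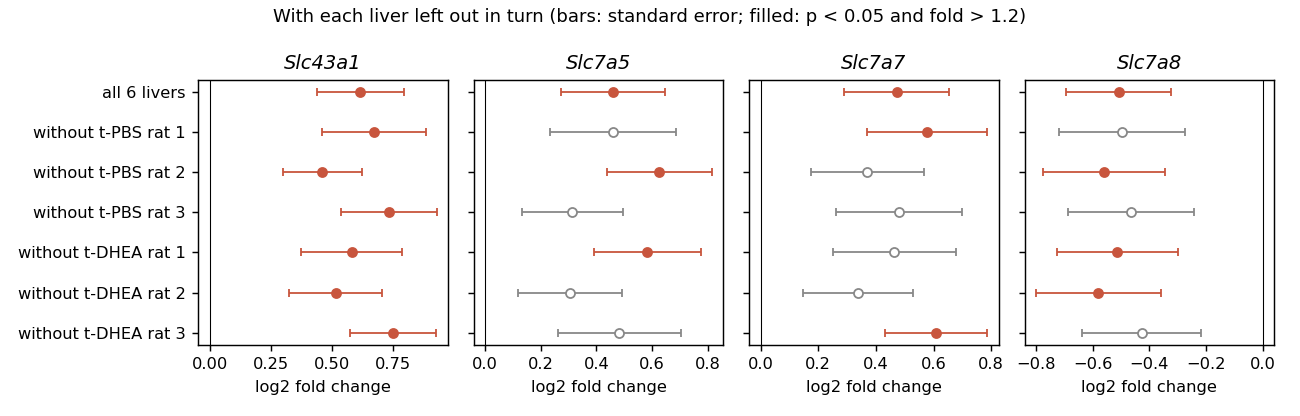
Log2 fold change of the same 4 genes with all 6 livers and with each liver left out in turn, with bars for the standard error. Filled points meet both criteria of the study in edgeR, which holds throughout for Slc43a1 and in 2, 2 and 3 of the 6 reduced fits for Slc7a5, Slc7a7 and Slc7a8.

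Slc7a7 and Slc7a8 lie 318 kb apart on chromosome 15 with 17 other genes starting between them, and moved in opposite directions. The ratio of Slc7a7 to Slc7a8 FPKM within a liver was 6.48, 5.32 and 5.50 for the t-PBS and 11.5, 12.2 and 10.3 for the t-DHEA rats. The means were 5.77 ± 0.628 (SD, n = 3) and 11.3 ± 0.960 (SD, n = 3). This ratio was formed after the values of both genes were seen and is given as a description. The heavy chain Slc3a2 (4F2hc), which all 4 tested light chains need, was not called and had 60.9 ± 4.71 CPM (SD, n = 3) in t-PBS and 54.4 ± 9.73 CPM (SD, n = 3) in t-DHEA livers. It differed by -0.16 ± 0.14 (SE) in log2 fold change. The summed FPKM of Slc7a5, Slc7a6, Slc7a7 and Slc7a8 amounted to 0.383, 0.317 and 0.287 of the Slc3a2 level in t-PBS and to 0.428, 0.689 and 0.366 of it in t-DHEA rats. The highest share was that of t-DHEA rat 2, where Slc3a2 was lowest, and the groups overlapped. Heavy chain transcript thus exceeded light chain transcript in all 6 livers.

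**Figure D5:**
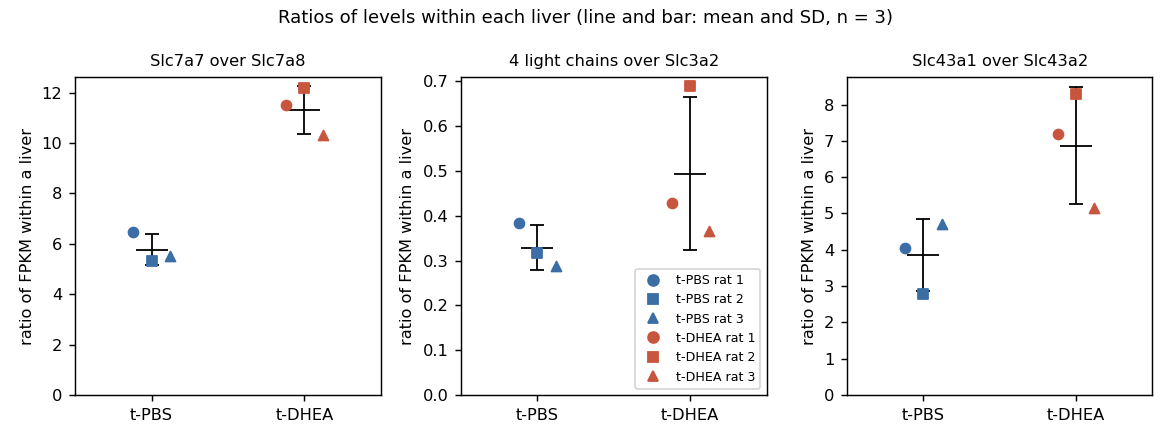
Ratios of FPKM within each liver for Slc7a7 over Slc7a8, the 4 tested light chains over Slc3a2 and Slc43a1 over Slc43a2, with 1 point per rat and lines and bars for the mean and SD of 3 livers. The groups are separated for Slc7a7 over Slc7a8 and for Slc43a1 over Slc43a2 and overlap for the light chains. The ratios were formed after the values were seen. For Slc43a1 over Slc43a2 the separation was fixed in advance, since each gene separated the groups in opposite directions.

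The promoters of the 4 called genes are shown to set their sequence elements side by side. RefSeq promoter windows were found for 46 of the 62 members and for 22 of the 28 tested. Each line gives the 250 bases before the annotated transcription start on the GRCr8 assembly, 5′ to 3′ in the direction of the gene. GRCr8 is a later assembly than the Rnor_6.0 used for the counts. Capitals mark matches on either strand to the E-box (CACGTG, the element of the clock, Myc and related factors) or to the GC box (GGGCGG).
Slc43a1 promoter, chr3:90327072-90327321 (+): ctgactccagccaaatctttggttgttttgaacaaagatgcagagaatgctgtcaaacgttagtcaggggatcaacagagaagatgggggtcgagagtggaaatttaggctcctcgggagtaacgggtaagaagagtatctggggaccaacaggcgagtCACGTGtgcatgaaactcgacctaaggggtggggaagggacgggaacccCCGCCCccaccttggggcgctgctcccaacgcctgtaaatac
Slc7a5 promoter, chr19:66872413-66872662 (-): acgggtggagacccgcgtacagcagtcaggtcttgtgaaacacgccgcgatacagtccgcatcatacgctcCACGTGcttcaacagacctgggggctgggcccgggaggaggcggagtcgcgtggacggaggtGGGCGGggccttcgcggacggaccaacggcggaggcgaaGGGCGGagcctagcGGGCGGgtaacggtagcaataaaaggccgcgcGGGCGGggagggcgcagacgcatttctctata
Slc7a7 promoter, chr15:31835684-31835933 (-): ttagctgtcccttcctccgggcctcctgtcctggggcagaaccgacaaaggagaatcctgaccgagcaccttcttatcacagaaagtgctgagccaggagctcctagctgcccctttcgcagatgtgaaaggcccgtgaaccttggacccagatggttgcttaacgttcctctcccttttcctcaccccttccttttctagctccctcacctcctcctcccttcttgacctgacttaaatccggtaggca
Slc7a8 promoter, chr15:32212716-32212965 (-): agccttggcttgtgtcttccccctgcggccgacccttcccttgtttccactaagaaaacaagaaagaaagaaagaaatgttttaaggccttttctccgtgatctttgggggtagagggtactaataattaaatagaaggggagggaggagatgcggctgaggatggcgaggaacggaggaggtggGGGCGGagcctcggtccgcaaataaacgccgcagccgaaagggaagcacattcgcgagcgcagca
The E-box was present in Slc43a1, 91 bases before the start, and in Slc7a5, 179 bases before it, whereas Slc7a8 held a GC box only and neither motif was found in Slc7a7. Of the 22 tested members with a window, 5 held an E-box (Slc1a4, Slc36a1, Slc38a7, Slc43a1 and Slc7a5), beside 5.59% of all 33469 promoters. The 33469 promoters were not limited to the 12210 genes tested in liver. The motif shares here thus set expressed members beside an unlike set, and are not read as traits of the carriers. The GC box was present in 14 of 22, Slc7a6os among them, beside 30.5% of all promoters. The C/EBP-ATF element TGATGNAA, through which amino acid shortage acts on some carrier genes, occurred in 1 of 22 (Slc1a4) beside 3.4%, and the D-box TTATGNAA in 0 of 22 beside 3.28%. TATAAA was present in 2 of 22 beside 12.9% and CCAAT in 4 of 22 beside 34.0%. The matches shown do not overlap each other. A match describes letters in the window and was not tested as a binding site.

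None of the 4 tested Slc1 members was called. Slc1a4, which encodes the alanine, serine and cysteine exchanger ASCT1, had 9.74, 7.96 and 7.02 CPM for the t-PBS and 4.95, 6.73 and 6.88 CPM for the t-DHEA rats. All t-DHEA livers lay below the t-PBS livers, by a small margin. In log2 fold change this was -0.41 ± 0.19 (SE; unadjusted p of 0.0561, edgeR), which met the criteria without t-PBS rat 3. Slc1a2, the glutamate carrier GLT-1 of hepatocytes around the central vein, had 52, 28 and 66 counts for the t-PBS and 102, 70 and 42 counts for the t-DHEA rats. It had the highest log2 fold change of all members, 0.66 ± 0.39 (SE), and did not pass (unadjusted p of 0.128, edgeR). The value was 0.25 without t-DHEA rat 1, and it met the criteria without t-DHEA rat 3 at 0.94. Of 11 pericentral hepatocyte markers tested, 7 were higher and 0 were called. The lowest unadjusted p among them was 0.0502 (edgeR), for Tbx3, at a log2 fold change of 0.63. Glul, the glutamine synthetase of the same cells, had 377, 423 and 413 CPM for the t-PBS and 388, 504 and 340 CPM for the t-DHEA rats. Slc1a3 and Slc1a5 had the lowest mean FPKM of the genes tested here, with 87 and 61 counts over the t-PBS livers and 96 and 44 over the t-DHEA livers. Their p-values before adjustment were 0.665 and 0.432 in edgeR. Slc1a7 was detected at 1 to 10 counts per liver and was below the filter.

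Of the Slc6 carriers, 5 of 19 were tested and 0 were called. Slc6a6, the taurine carrier, had 9.53, 10.5 and 6.79 CPM for the t-PBS and 4.46, 8.75 and 4.40 CPM for the t-DHEA rats. Only t-DHEA rat 2 reached into the t-PBS range. Its log2 fold change of -0.60 ± 0.29 (SE) missed the threshold (unadjusted p of 0.0656, edgeR). It met the criteria with DESeq2, with the likelihood-ratio test, with the replicate block, after t-PBS rat 3 was left out and after t-DHEA rat 2 was, when it was -1.01. Slc6a13 and Slc6a12, neighbouring genes 8.96 kb apart on chromosome 4 that encode the GABA carriers GAT2 and BGT1, had log2 fold changes of 0.12 and 0.076. Slc6a13 was 180, 125 and 197 CPM for the t-PBS and 138, 242 and 165 CPM for the t-DHEA rats, so that the spread within each group exceeded the difference between them. Slc6a9, the glycine carrier GlyT1, was measured at 100 ± 19.0 CPM (SD, n = 3) in t-PBS and 98.6 ± 11.7 CPM (SD, n = 3) in t-DHEA livers. Slc6a8, the creatine carrier, was measured at 7.16 ± 1.29 CPM (SD, n = 3) and 7.32 ± 2.48 CPM (SD, n = 3). Slc6a20, a proline carrier, was detected at 0 to 6 counts per liver and was below the filter.

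The major uptake carriers of the Slc38 family differed by less than the spread between livers. All 7 tested members had an unadjusted p above 0.05. Slc38a3 was 936 ± 91.2 CPM (SD, n = 3) in t-PBS and 975 ± 27.9 CPM (SD, n = 3) in the t-DHEA group, a log2 fold change of 0.059 ± 0.11 (SE). Slc38a4 had 706, 543 and 748 CPM for the t-PBS and 790, 495 and 773 CPM for the t-DHEA rats, a log2 fold change of 0.043 ± 0.19 (SE). In both groups rat 2 was the lowest for this gene, and the other 2 rats were close together. Slc38a2, the system A carrier SNAT2 that cells raise under amino acid shortage, had 110, 103 and 100 CPM in t-PBS but 90.0, 77.7 and 149 CPM for the t-DHEA rats. The t-PBS livers were close together while t-DHEA rat 3 was above and the other 2 t-DHEA rats below all of them. Over all livers the log2 fold change was 0.017 ± 0.21 (SE). Without t-DHEA rat 3 it was -0.31 and met the criteria.

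Slc38a7, Slc38a9, Slc36a1 and Slc36a4 showed small positive values that did not pass the test, beside 50.4% higher among all genes tested. Slc38a7, which returns glutamine and asparagine from lysosomes, had 20.7, 17.0 and 22.1 CPM for the t-PBS and 22.8, 22.1 and 24.2 CPM for the t-DHEA rats. The difference was 0.21 ± 0.12 (SE) in log2 fold change (unadjusted p of 0.121, edgeR). Slc38a9, the lysosomal arginine sensor of the mTORC1 kinase, had a log2 fold change of 0.14 ± 0.14 (SE). The proton-coupled carrier Slc36a1 and its family member Slc36a4 had log2 fold changes of 0.084 and 0.11. Slc36a2 and Slc36a3, which adjoin Slc36a1 on chromosome 10, had at most 3 counts in a liver. Slc38a10 and Slc38a6 had log2 fold changes of -0.043 and 0.097, and Slc38a6 overlaps Trmt5 in the table, so its counts are less certain. Slc38a1, a system A carrier known from brain, was detected at 1 to 6 counts per liver and was below the filter.

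The arginine carrier Slc7a2 was the only tested member of the cationic group. It had 159, 160 and 192 CPM for the t-PBS and 227, 122 and 194 CPM for the t-DHEA rats, so t-DHEA rats 1 and 2 were the highest and lowest of the 6 livers. This was a log2 fold change of 0.092 ± 0.20 (SE), and it was 0.31 and met the criteria without t-DHEA rat 2. Slc7a1, the arginine carrier of most other cells, had 1 to 22 counts per liver, and Slc7a4 had 2 to 8. Both were below the filter.

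Spread among livers was similar in the groups. The median coefficient of variation over the 28 genes was 15.3% in t-PBS and 17.0% in t-DHEA livers, running from 2.24% for Slc38a9 to 59.2% for Slc1a5 in t-PBS and from 2.86% for Slc38a3 to 74.1% for Slc1a3 in t-DHEA. The most abundant carrier was therefore the least variable one in t-DHEA livers.

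Genes that sense or use amino acids, taken from lists written for this purpose, are read beside the 4.95% called among all genes tested. Of all genes tested, 50.4% were higher in t-DHEA livers, and the direction of a list was not tested. Among carriers of amino acids outside the name rule, which include the aromatic carrier Slc16a10 and the mitochondrial carriers of aspartate and ornithine, 14 of 21 were tested and 0 called, at a median of 0.035 in log2 fold change. The lowest unadjusted p was 0.0942 for the aspartate and glutamate carrier Slc25a12. Of 32 tested genes of the amino acid response around Atf4, 10 were higher and 22 lower, with a median of -0.095. Only the serine-synthesis enzyme Psph was called, with 5.68, 5.38 and 6.42 CPM for the t-PBS and 2.97, 3.59 and 3.94 CPM for the t-DHEA rats. Of 38 tested genes of mTORC1 sensing, 1 was called, the lysosomal scaffold subunit Lamtor4, with a log2 fold change of 0.47. Of 41 tested enzymes that act on the carried amino acids, 25 were higher and 16 lower. Called as upregulated were the tyrosine aminotransferase Tat (0.68) and the serine dehydratase Sds (1.67), and as downregulated the lysine-degrading Aass (-0.38) and the glycine-cleaving Gldc (-0.27), all as log2 fold changes. Tat, the rate-limiting enzyme of tyrosine breakdown, had 481, 561 and 621 CPM for the t-PBS and 630, 1040 and 992 CPM for the t-DHEA rats, without overlap. Sds had 40.2, 10.5 and 110 CPM in t-DHEA rats 1, 2 and 3 and 15.6 to 17.9 CPM in t-PBS livers, so t-DHEA rat 2 lay below all of the t-PBS livers.

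Markers of other cells moved with the groups in part, and calls among them are read beside the 4.95% called among all genes tested. In whole liver, fewer cells of a type and less RNA per cell cannot be told apart. Of 6 tested mesothelial markers, 6 were lower and 4 were called, with Krt5 at 0 throughout. Gpm6a counted as lower only through t-DHEA rat 2, at a log2 fold change of -0.13. It had 10.4, 10.3 and 10.8 CPM for the t-PBS and 12.7, 0.15 and 15.9 CPM for the t-DHEA rats. The summed mesothelial level, Gpm6a included, was 15.6 to 17.2 FPKM in t-PBS and 0.915 to 11.1 FPKM in t-DHEA livers. Of 6 tested bile duct markers, 5 were lower and 2 were called, with sums of 16.6 to 21.3 FPKM and 10.9 to 15.2 FPKM. Both sums were lowest in t-DHEA rat 2, whereas Slc7a8, the member called as lower, was highest there among t-DHEA livers. The part of these cells in its difference was not tested. Of 11 tested Kupffer cell and macrophage markers, relevant to Slc7a7, 0 were called. Their sums were 421 to 512 FPKM in t-PBS and 444 to 610 FPKM in t-DHEA livers. In t-DHEA rats 1 to 3 the sums were 460, 444 and 610 FPKM, while Slc7a7 was highest in rat 2 and lowest in rat 3. The part of these cells in the difference of Slc7a7 was not tested. Of 5 tested lymphocyte markers 0 were called. Stellate cell markers had 2 of 11 called as lower and endothelial markers 1 of 9 as higher. Of 10 tested periportal markers 1 was called, Sds. Red blood cell markers, of which 3 of 5 were called as higher, summed to 611, 679 and 408 FPKM in t-PBS rats 1 to 3 and 679, 1370 and 877 FPKM in t-DHEA rats 1 to 3. The called ones were the globins Hba1, Hba2 and Hbb, and Slc4a1 and Alas2 were not called. Slc7a5 had the same order of livers as this sum within each group, while Slc43a1 had the reverse order within t-PBS. Within t-DHEA, Slc43a1 was highest in rat 2, as was the sum, and lowest in rat 3, whereas the sum was lowest in rat 1. These orders of 3 livers were read after the values were seen. The part of red blood cells in the difference of either gene was not tested. Of 13 tested clock genes, 4 were called as higher, Per3 and Per2 among them, and 1, Arntl, as lower. Among all genes tested, 1.97% were called as higher and 2.98% as lower. The part of the clock genes was not tested.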

How the data were processed

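Per the labels and the paper, liver RNA was mapped to Rnor_6.0 with HISAT2 2.0.4 and fragments were counted with StringTie 1.3.0. The deposited counts per gene are not normalized. The FPKM values that the authors deposited follow from each count, a fixed gene length and the library total within a relative difference of 0.000791. The annotation release and strandedness are not given in the sources used here. Counts were filtered with filterByExpr, scaled by TMM and tested with edgeR 4.0.16 in R 4.3.3 over all 12210 genes, adjusted by Benjamini-Hochberg. Standard errors were derived from the test statistic. FPKM was used to compare genes, and CPM to compare livers. No 2 libraries were duplicates (chi-square per degree of freedom 16.2 to 37.5 over 15 pairs). In simulated counts with 200 genes changed 2-fold, the test recovered 75.0% of them at an adjusted p below 0.05. The smaller changes called among members, at an unadjusted p, were not simulated. Alternatives used DESeq2 1.42.0, limma 3.58.1, other filters and scaling, a replicate block and each liver left out. Members, lists and motifs were chosen with earlier results of these data known. Named in full were members that met the criteria or had the 2 lowest p-values of their family, with the 3 highest levels of each family and up to 3 genes of lowest p per list. Values of other members, ratios and Glul were added after they were seen. Values of 1 member are not reported here.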

Additional observations from a re-analysis of the deposited data

How the results depend on the processing

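The 4 calls among members became 1 at a fold-change above 1.5 and 2 with limma on log2(FPKM + 1), and lay between 2 and 4 when 1 liver was left out. Slc43a1 was called under every alternative run at a fold-change above 1.2. The labels do not say whether rats with the same replicate number shared a cage or batch. Same-numbered rats had correlations of deviations of -0.0571, -0.0592 and -0.0551 over 12210 genes. Differently numbered pairs ran from -0.0683 to 0.116. Deviations were taken from the mean of each group of 3, so these correlations depend on each other and cannot decide on pairing. With the replicate block 4 members were called, with Slc6a6 in place of Slc7a7, and 539 over all genes in edgeR. Without the filter on low counts 6 were called, and with DESeq2 4, with Slc6a6 in place of Slc7a8. Over all genes, 604 were called in edgeR without the block and 414 with DESeq2. The adjusted count of members stayed at 0 under all alternatives, detection lay between 27 and 33 members under the rules tried, and 4 members were separated on total counts too. The members' median log2 fold change of 0.059 was 0.0081 and 0.017 with limma on log2(FPKM + 0.1) and log2(FPKM + 1) and 0.083 without the filter. Over all genes tested the median of 0.0013 also fell in these limma fits, to -0.037 and -0.029. With 1 liver left out the members' median ran from 0.0011 (without t-DHEA rat 1) to 0.057. It was 0.012 when t-PBS rat 2 and 0.037 when t-DHEA rat 2 was omitted.

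No member called by edgeR with all 6 livers changed direction. The following members did, none of them called in that fit, though Slc38a2 and Slc7a2 were with 1 liver left out. With limma on log2(FPKM + 0.1) and on log2(FPKM + 1) the log2 fold changes were -0.078 and -0.073 for Slc38a2, -0.013 and -0.013 for Slc38a4, and -0.039 and -0.019 for Slc6a8. The median over all genes tested was below 0 in these limma fits as well. Slc38a2 was -0.040 with the replicate block. With 1 liver left out, log2 fold changes ran from -0.31 to 0.20 for Slc38a2, -0.081 to 0.23 for Slc38a4, -0.27 to 0.22 for Slc6a8, -0.14 to 0.048 for Slc38a10, -0.63 to 0.23 for Slc1a5, -0.016 to 0.11 for Slc38a3, -0.14 to 0.28 for Slc6a13, -0.074 to 0.24 for Slc36a1, -0.16 to 0.059 for Slc43a3, -0.15 to 0.13 for Slc6a9, -0.033 to 0.19 for Slc7a6os, -0.42 to 0.70 for Slc1a3, -0.040 to 0.26 for Slc36a4 and -0.10 to 0.31 for Slc7a2. The cause was not tested.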
